A study of Homo sapiens with 54 samples.

Results

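The G2 and mitosis genes are 40 genes whose products drive cells from the end of DNA synthesis through chromosome segregation to the separation of the daughter cells. They were taken by gene symbol from a written list of cyclins, kinases, kinetochore and spindle proteins, motor proteins and ubiquitin ligase factors. The list uses no measured value, but it was chosen with earlier results of these data known. All 40 were found among the 27043 genes of each of 24 full expression tables and in both single-cell matrices. In dividing cells the transcripts of these genes build up in G2, reach their peak around mitosis and are low in G1, so that a bulk RNA sample holds more of them where more of its cells are dividing. Cyclin B and CDK1 form the kinase that starts mitosis, the Aurora and Polo-like kinases build the spindle, the spindle checkpoint holds the anaphase-promoting complex back until every kinetochore is attached, and that complex then marks cyclin B for destruction. Transcription of the group depends on MYBL2 and FOXM1, which act with the MuvB complex at a cell cycle element in the promoter, and on NF-Y, which binds CCAAT boxes.

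RNA, chromatin and single cells were measured in RH4, an established cell line of fusion-positive rhabdomyosarcoma (FP-RMS), labelled wt, that carries the PAX3-FOXO1 fusion, after treatment with inhibitors of that fusion's transcriptional output. P3FI-63 came from a compound screen and P3FI-90 is its structural analog, and both act on histone lysine demethylases, with KDM3B as the most sensitive. At 24 h there were 3 libraries of DMSO, 2 of P3FI-63 at 10 µM and 3 of P3FI-90, of which replicates 3 and 4 received 1 µM. The dose of the remaining P3FI-90 library, named replicate 1 here, and of the P3FI-90 library at 6 h is not in the labels, and the study's methods give 1 µM. The screen had 1 library for each of 7 compounds and 1 of DMSO, with P3FI-63 under the name UPCMLD0ENAT5834780. The labels of the screen libraries give 24 h and the methods 6 h. Tumors were RH4 cells grown under the skin of immunodeficient mice that lack lymphoid cells, 2 given vehicle (DMSO) and 2 given P3FI-90, collected after 5 days. Single cells were taken at 16 h and Pol2 chromatin immunoprecipitation was done at 24 h, with 1 DMSO and 1 P3FI-90 library each, and open chromatin was profiled at 4 h in 1 DMSO library and 1 P3FI-63 library at 10 µM. Controls of knockdown experiments whose treated partners are not analysed here entered only the ranges of levels.

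All expression values below are TPM (a transcript level scaled by transcript length), which sum to the same total in every library and keep no depth. All 9 markers of rhabdomyosarcoma were at 1 TPM or more in each of the 24 full libraries, 0 of 6 endothelial markers reached 1 TPM in any library, and 0 to 2 of 7 immune markers did. Fibroblast markers were present in culture, where 3 to 6 of 7 reached 1 TPM. They summed to 1014, 850.3 and 631 TPM in DMSO at 24 h. The labels give different dates for DMSO replicates 3 and 4 at 24 h, and each tumor label names a different mouse. For the other 24 h libraries the labels do not state separate cultures, although the study's methods speak of biological triplicates. The p-values measure the spread between these libraries, which in culture may be partly technical. At 24 h, replicate 4 of P3FI-63 stood apart from the other libraries, with a median-ratio size factor of 0.601 against 0.904 to 1.26, and among tumors replicate 2 of P3FI-90 did, at 0.769 against 1.04 to 1.24. For the members, the count below 0, the limma calls, the median and the largest changes are given with and without these 2 libraries. Medians by role and those of other gene lists are given with them only. The summed level of the rhabdomyosarcoma markers was 2224, 2466 and 2318 TPM in DMSO at 24 h and 1777 and 1503 TPM after P3FI-63, and that of the immune markers was 3.07 to 12 TPM against 48.2 and 21.9 TPM. Of the 7 immune markers, only 1 was at 1 TPM or more in each of these DMSO libraries and in P3FI-63 replicate 3. In P3FI-63 replicate 4 it was 2, so the immune sums rest on 1 or 2 genes. Whether either sum had a part in the member values was not tested.

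The promoters show what many of the members share before any treatment. Promoter sequences of RefSeq (assembly GRCh38.p14, 250 bases before to 50 bases after the start) were at hand for 35 of the 40 members, all except AURKA, BIRC5, TPX2, TTK and UBE2C. The letters TTTGAA, the usual form of the cell cycle element, stood on either strand in 25 of 35 members (71.4%), against 15.4% of 27305 promoters. The variant CTTGAA stood in 3 (8.57% against 11.2%), the CCAAT box in 23 (65.7% against 35.7%), and CCAAT at 2 or more places in 15 (42.9% against 11.3%). CCAAT together with TTTGAA or CTTGAA stood in 20 members (57.1% against 9.46%). Of 59 other mitosis genes, 47 had a promoter entry and 31 of these held TTTGAA (66.0%), whereas of 34 DNA replication genes with an entry 1 did (2.94%), although 61.8% of them held CCAAT. These are matches of letters, and a promoter without a match holds no such letters in this window, which says nothing about the factor. TTTGAA was absent from the windows of CCNB1, CCNA2, BUB1, CENPE, CKAP2, KIF2C, LBR, TACC3, AURKB and CDC25C. Of these, CCNA2 held the variant CTTGAA at 2 places.

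The 200 bases before the RefSeq start of 6 members on which the results below turn are printed 5′ to 3′ along the gene, to show how the 2 kinds of element sit together. Capitals mark the letters TTTGAA and CTTGAA and the CCAAT box, on either strand. No other letters were searched for, so an unmarked stretch may hold another form of the element. On the opposite strand TTTGAA reads as TTCAAA, its variant CTTGAA reads as TTCAAG, and the CCAAT box reads as ATTGG. Each sequence was matched exactly to GRCh37, the build of the deposited peaks, at chr5:68462777-68462976 (+ strand) for CCNB1, chr15:59397145-59397344 (+) for CCNB2, chr10:62537889-62538088 (+) for CDK1, chr16:23690010-23690209 (+) for PLK1, chr17:38574149-38574348 (-) for TOP2A and chr10:129924688-129924887 (-) for MKI67.
CCNB1: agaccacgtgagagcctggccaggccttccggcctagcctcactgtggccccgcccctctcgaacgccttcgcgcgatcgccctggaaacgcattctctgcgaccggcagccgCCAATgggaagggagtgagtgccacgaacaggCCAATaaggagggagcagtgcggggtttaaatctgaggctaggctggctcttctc
CCNB2: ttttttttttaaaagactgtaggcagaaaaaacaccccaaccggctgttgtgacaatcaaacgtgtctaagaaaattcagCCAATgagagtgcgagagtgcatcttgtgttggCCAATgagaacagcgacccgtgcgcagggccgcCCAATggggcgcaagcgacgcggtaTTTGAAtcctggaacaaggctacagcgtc
CDK1: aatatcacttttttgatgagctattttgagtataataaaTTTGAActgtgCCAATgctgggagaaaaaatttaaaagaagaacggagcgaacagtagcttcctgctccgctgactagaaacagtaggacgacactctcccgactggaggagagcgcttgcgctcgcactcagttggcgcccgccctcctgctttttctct
PLK1: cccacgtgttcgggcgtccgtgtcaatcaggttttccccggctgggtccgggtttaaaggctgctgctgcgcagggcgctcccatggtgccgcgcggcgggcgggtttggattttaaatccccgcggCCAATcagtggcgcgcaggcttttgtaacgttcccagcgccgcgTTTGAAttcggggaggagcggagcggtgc
TOP2A: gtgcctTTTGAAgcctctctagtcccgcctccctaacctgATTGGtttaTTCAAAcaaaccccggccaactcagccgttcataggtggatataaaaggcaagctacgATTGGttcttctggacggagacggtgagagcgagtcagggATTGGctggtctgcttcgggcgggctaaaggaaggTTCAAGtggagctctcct
MKI67: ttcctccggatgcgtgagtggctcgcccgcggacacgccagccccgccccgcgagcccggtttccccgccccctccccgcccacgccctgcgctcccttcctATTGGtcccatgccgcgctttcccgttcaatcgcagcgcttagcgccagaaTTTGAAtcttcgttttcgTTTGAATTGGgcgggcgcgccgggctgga
CCNB1 held 2 CCAAT boxes and no TTTGAA, and CCNB2 held 3 CCAAT boxes in a row ahead of a TTTGAA. The TTTGAA of CCNB2 and that of PLK1 both began 29 bases before the start. In MKI67 the TTTGAA nearest the start overlaps an inverted CCAAT box. TOP2A held 3 matches of each kind.

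The members were abundant in DMSO-treated RH4 cells. At 24 h the highest were UBE2C, the E2 enzyme of the anaphase-promoting complex, at 649.2 ± 95.8 TPM (SD, n = 3), and CKS2, a small subunit of the cyclin-CDK kinases, at 621 ± 27 TPM, and these did not differ beyond their spread. TOP2A, the topoisomerase that untangles sister chromatids, followed at 328.4 ± 59.4 TPM and overlapped with CDC20, the activator of the anaphase-promoting complex, at 285.2 ± 27.6 TPM. At the low end were CDC25C, the phosphatase that activates CDK1, at 23.06 ± 0.747 TPM, CDCA3, a trigger of mitotic entry, at 21.42 ± 0.7 TPM, and the kinesin KIF20B at 21.01 ± 11.1 TPM. G2E3, a ubiquitin ligase named for its G2 expression, was listed at 0 TPM in 23 of the 24 full libraries and at 0.01 TPM in the other, had 1 UMI in each single-cell library, and carried no Ser5, H3K4me3 or open chromatin peak at its start site. It could not be tested, and counts of members in the bulk libraries are therefore out of 39.

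Summed over the members, the level was 5526, 6015 and 5128 TPM in the DMSO libraries at 24 h, 4297 and 3998 TPM after P3FI-63, and 4588, 4548 and 3869 TPM after P3FI-90. Every treated library lay below every DMSO library. The sum leans on a few short transcripts, and the median over the members was 92.7, 105 and 85.2 TPM in DMSO, 68.2 and 29.4 TPM after P3FI-63, and 69.5, 72.8 and 61.9 TPM after P3FI-90, again without overlap. In these bulk samples fewer dividing cells and less RNA per dividing cell cannot be told apart.

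After 24 h of P3FI-63, 37 of 39 members had a log2 fold change below 0 (background over all 12332 genes tested, 73.1%), with a median of -0.91 for the members and -0.35 for all genes. TOP2A, CKAP2, SMC4, CENPE and MKI67 were at the low end, and CKS2 and UBE2C were above 0. Limma called 0 members lower at an adjusted p under 0.05 (background 1.21%) and 0 higher (1.16%). At an unadjusted p under 0.05, 24 members were lower (15.1% of all genes). In 25 members both P3FI-63 libraries lay below all 3 DMSO libraries (24.3%).

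Values of single members show how unevenly the 2 P3FI-63 libraries behaved. Values are given for DMSO replicates 1, 3 and 4, P3FI-63 replicates 3 and 4 and, further on, P3FI-90 replicates 1, 3 and 4. TOP2A was at 364, 361 and 259.8 TPM in DMSO and at 213 and 37.6 TPM after P3FI-63 (log2 fold change -1.84, SE 0.573, adjusted p = 0.131). Both treated libraries were below all controls, and replicate 4 was far below replicate 3, so that the log2 fold change was -0.60 without replicate 4 and -3.08 without replicate 3. CKAP2, a spindle-binding protein, was at 164, 143 and 118 TPM in DMSO and at 88.6 and 28.9 TPM after P3FI-63 (-1.45, SE 0.428, adjusted p = 0.114), with the same order of libraries and values of -0.66 without replicate 4 and -2.24 without replicate 3. MKI67, the Ki-67 protein that coats mitotic chromosomes, was at 16.9, 122 and 21 TPM in DMSO and at 48.5 and 1.31 TPM after P3FI-63 (-1.77, SE 1.33, adjusted p = 0.464). Here the groups overlapped, with DMSO replicate 3 and P3FI-63 replicate 3 both high, and without P3FI-63 replicate 4 the value was 0.44. Without that library CENPE was at 0.32 (-1.44 with it), CENPF at 0.84 (-1.17), SMC4 at -0.25 (-1.43), CCNA2 at -0.67 (-1.25), CCNB1 at -0.76 (-1.15), PLK1 at -0.36 (-0.80) and CDK1 at -0.11 (-0.64).

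Among the cyclins and CDK subunits the median log2 fold change was -0.64 over 6 genes. CCNB1, cyclin B1, was at 265, 268 and 249 TPM in DMSO and at 153 and 89.2 TPM after P3FI-63, which gave the smallest adjusted p of the group (log2 fold change -1.15, SE 0.257, adjusted p = 0.0526). CDK1, its kinase partner, was at 256, 263 and 184 TPM in DMSO and at 214 and 103 TPM after P3FI-63 (-0.64, SE 0.323), and these groups overlapped. CKS2 was at 651, 613 and 599 TPM in DMSO and at 559.9 and 1299 TPM after P3FI-63 (0.46, SE 0.305): 1 treated library was below all controls and the other well above them. The mitotic kinases were lower in both treated libraries than in any control. PLK1, the Polo-like kinase, was at 76.7, 84.9 and 90.7 TPM in DMSO and at 65.0 and 34.9 TPM after P3FI-63 (-0.80, SE 0.292, adjusted p = 0.177). AURKA, the Aurora kinase of the spindle poles, was at 166, 172 and 168 TPM in DMSO and at 110.0 and 80.5 TPM after P3FI-63 (-0.83, SE 0.245, adjusted p = 0.113).

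AURKB, the Aurora kinase of the chromosomal passenger complex, was at 70.9, 88.8 and 79.7 TPM in DMSO and at 55.5 and 84.8 TPM after P3FI-63 (-0.21, SE 0.265), with overlapping groups. The scaffold of the cleavage furrow, ANLN, was at 238, 271 and 190.1 TPM in DMSO and at 245 and 124 TPM after P3FI-63 (-0.40, SE 0.31), also overlapping. UBE2C was at 568, 625 and 755 TPM in DMSO and at 616 and 1019 TPM after P3FI-63 (0.30, SE 0.246). The 7 spindle assembly factors, which include TPX2, NUSAP1, HMMR, DLGAP5, GTSE1 and TACC3, had a median of -1.14, and in all 7 the groups did not overlap. The 4 genes of chromosome structure had a median of -1.60, the 5 of centromere and kinetochore -1.10, the 4 motor proteins -1.02, the 3 spindle checkpoint genes -0.76, the 3 chromosomal passengers -0.69, the 3 ubiquitin ligase factors -0.67 and the 2 genes of cytokinesis -0.58. All medians by role include P3FI-63 replicate 4. Without it the centromere and kinetochore genes were at 0.32 (CENPE), 0.84 (CENPF), 0.12 (NUF2), -0.29 (CENPA) and -0.62 (NDC80). Those of chromosome structure were then at 0.44 (MKI67), -0.25 (SMC4), -0.6 (TOP2A) and -0.7 (LBR). The motor proteins were then at 0.37 (KIF20B), -0.29 (KIF2C), -0.37 (KIF23) and -0.43 (KIF11).

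The replicate numbers of the 24 h libraries were taken to pair them, since same-numbered libraries deviated together in these same data. The labels do not state a pairing, and the pair called 1 carries no number. On that assumption each treated library was set against its own control, and the calls with the block below rest on it. Against DMSO replicate 3, P3FI-63 replicate 3 was lower in 39 of 39 members, with a median log2 ratio of -0.64 against -0.11 for all genes. Against DMSO replicate 4, P3FI-63 replicate 4 was lower in 36 of 39, with a median of -1.27 against -0.59. Lower in both pairs were 36 members (background 51.4%), all but CKS2, AURKB and UBE2C. With the replicate number as a block in the fit, limma called 20 members lower (background 8.31%) and 0 higher. They were CCNA2, CCNB1, AURKA, BUB1B, CENPE, NDC80, KIF11, KIF23, TPX2, NUSAP1, HMMR, DLGAP5, CKAP2, GTSE1, TACC3, SMC4, MKI67, LBR, CDC20 and CDCA3. MKI67 had a log2 fold change of -2.34 (adjusted p = 0.03) and CCNB1 of -1.09 (adjusted p = 0.0248) in that fit. Without P3FI-63 replicate 3 the fit without a block called 33 members lower (35.5% of all genes), and without P3FI-63 replicate 4 it called 0, with 31 of 39 below 0 and a member median of -0.45 against 0.06 for all genes.

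**Figure D1:**
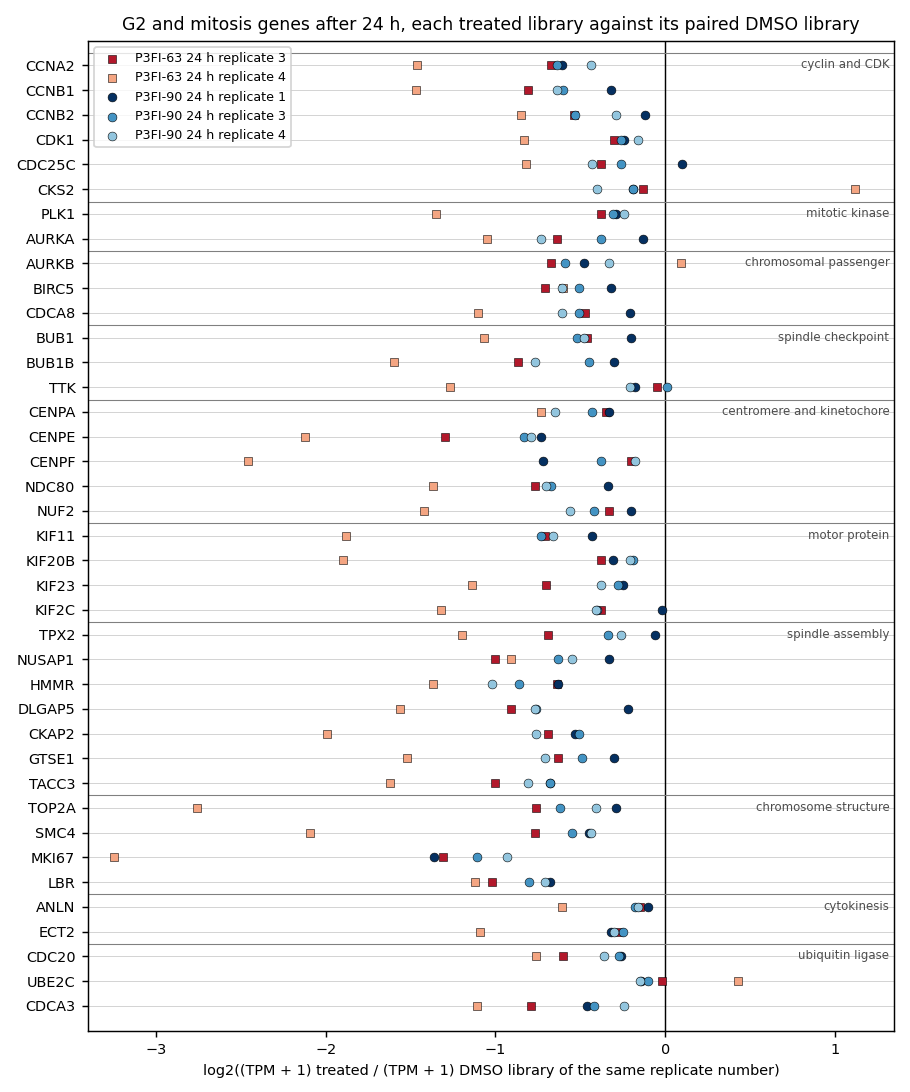
Log2 ratio of TPM + 1 in each treated 24 h library to the DMSO library of the same replicate number (x axis) for the 39 members with values (y axis, grouped by role). Squares are the 2 P3FI-63 libraries and circles the 3 P3FI-90 libraries. Most points lie left of 0, and the pale squares of P3FI-63 replicate 4 lie farthest left for 34 of 39 members, not for BIRC5 and NUSAP1 nor for CKS2, AURKB and UBE2C, where they lie right of 0.

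The plot of ratios to the paired control shows the circles of P3FI-90 between 0 and about the position of P3FI-63 replicate 3 for most members, and P3FI-63 replicate 4 spread far to the left. That spread went with transcript length. In P3FI-63 replicate 4 the median log2 difference from the DMSO mean over all genes was -0.21 for transcripts under 2 kb, -0.81 for 2 to 5 kb and -1.23 for 5 kb or more. The members in the same classes had medians of -0.70 (9 genes), -1.47 (23) and -3.08 (7). In DMSO replicate 3 the long class of all genes was at 0.26 and its members at 0.75, and in DMSO replicate 4 at -0.31 and -0.73, so controls differed in the same way by less. The longest members had the widest ranges within DMSO: 2.78 log2 units for MKI67 (12716 bases), 2.69 for CENPE (8541), 1.77 for CENPF (10290) and 1.5 for KIF20B (6441). CKS2, the shortest at 616 bases, had a range of 0.12. A correction for transcript length was chosen after the data were seen. With it 6 members were called lower without the block (CCNB1, DLGAP5, CKAP2, TACC3, TOP2A and CDCA3), against 311 of 10918 genes. The member median was then -0.57 against -0.01 for all genes. With the block and this correction 20 were called, against 775 of 10918 genes. Of these, 19 were among the 20 called by the block alone, in the same libraries. With median-ratio scaling, which brings the median of all genes to 0, the member median was -0.52. Then 0 members were called lower without the block (210 of 12333 genes) and 12 with it (589 of 12333 genes). What caused the dependence on length was not tested.

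**Figure D2:**
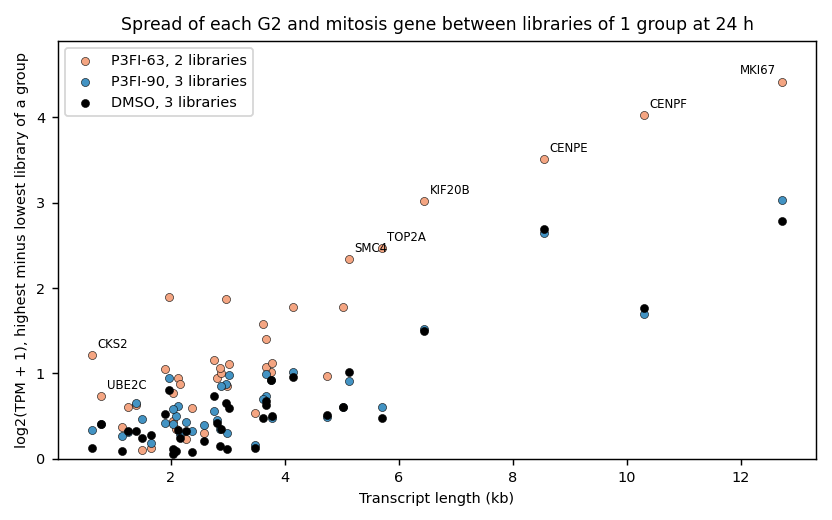
Range of log2(TPM + 1) between the libraries of 1 group at 24 h (y axis) against transcript length in kb (x axis) for 39 members. Black points are the 3 DMSO libraries, blue the 3 P3FI-90 libraries and orange the 2 P3FI-63 libraries. MKI67, at 12716 bases, reaches 2.78 in DMSO and 4.42 in P3FI-63, whereas every member under 5 kb stays under 1 in DMSO.

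Other cell cycle genes had medians of a like size. After P3FI-63 the median log2 fold change was -0.84 over 56 other mitosis genes, -0.92 over 40 DNA replication genes and -0.57 over 35 cell cycle regulators. Limma called 1 other mitosis gene lower, CCNF, cyclin F (-2.35, adjusted p = 0.04). It called 4 DNA replication genes lower, among them TYMS, thymidylate synthase (-1.03, adjusted p = 0.0238), MCM6, a subunit of the replicative helicase (-1.40, adjusted p = 0.0395), and POLA1, the catalytic subunit of DNA polymerase alpha (-1.47, adjusted p = 0.0443). Of the regulators, CDKN2C, a CDK inhibitor, was called lower (-1.39, adjusted p = 0.0446). The transcription factor FOXM1 was at 63.9, 79.3 and 70.5 TPM in DMSO and at 36.3 and 29.2 TPM after P3FI-63 (-1.10, SE 0.245, adjusted p = 0.0524), without overlap. MYBL2 was at 171, 200.4 and 212 TPM in DMSO and at 146 and 194 TPM after P3FI-63 (-0.21), and E2F1 had a log2 fold change of -0.59 (adjusted p = 0.234). CDKN1A, the p21 inhibitor of CDKs, was at 87.8, 69.3 and 65.3 TPM in DMSO and at 119 and 393 TPM after P3FI-63 (1.55, SE 0.439, adjusted p = 0.103), both above all controls.

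After 24 h of P3FI-90, 39 of 39 members had a log2 fold change below 0 (background 62%), with a median of -0.44 against -0.08 for all genes. MKI67, HMMR and CENPE had the lowest log2 fold changes, and TTK, UBE2C and ANLN those nearest to 0. Limma called 0 members lower (0 of all genes) and 0 higher (0.00811%), with an adjusted p of 1 for each. Lower at an unadjusted p under 0.05 were 5 members (1.09%), namely CCNB1, BIRC5, NUSAP1, HMMR and TACC3. All P3FI-90 libraries lay below all DMSO libraries in 20 members (7.73%). This comparison shares its DMSO libraries with that of P3FI-63, and the doses differ, so the values stand side by side without a contrast between compounds.

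MKI67 was at 5.95, 56.0 and 10.6 TPM after P3FI-90 in replicates 1, 3 and 4, against 16.9, 122 and 21 TPM in the DMSO libraries of the same numbers (log2 fold change -1.13, SE 1.19). Each treated library was below its own control although the groups overlapped. HMMR, a spindle and centrosome protein, was at 90.3, 78.0 and 59.8 TPM in DMSO and at 57.9, 42.6 and 28.9 TPM after P3FI-90 (-0.84, SE 0.361), and CENPE, the kinesin that moves chromosomes to the spindle equator, at 15.5, 73.2 and 10.5 TPM and at 8.97, 40.6 and 5.65 TPM (-0.78, SE 1.03). HMMR did not overlap between groups and CENPE did. CCNB1 was at 211, 177 and 159 TPM after P3FI-90 (-0.52, SE 0.23), below all DMSO libraries. AURKA was at 151, 132 and 101 TPM (-0.41, SE 0.219) and PLK1 at 62.4, 68.3 and 76.4 TPM (-0.28, SE 0.261), in both cases below the lowest control. CDK1 was at 217, 220 and 164 TPM (-0.22, SE 0.289) and TOP2A at 298, 235 and 196 TPM (-0.44, SE 0.513), both overlapping with DMSO.

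CKS2 was at 570.2, 537 and 454 TPM after P3FI-90 (-0.26, SE 0.273), below all controls. UBE2C was at 515, 583 and 679 TPM (-0.13, SE 0.22) and ANLN at 221, 239 and 169.6 TPM (-0.15, SE 0.277), and both overlapped with their controls. TTK, a kinase of the spindle checkpoint, was at 69.3, 71.1 and 44.8 TPM in DMSO and at 61.1, 71.8 and 38.5 TPM after P3FI-90 (-0.13, SE 0.46), also overlapping. By role the medians ran from -0.22 for cytokinesis to -0.61 for chromosome structure, with -0.58 for spindle assembly, where 6 of 7 genes did not overlap. Within pairs, 37 members were lower in all 3 pairs (background 35.5%), all but CDC25C and TTK. The pair medians were -0.30, -0.49 and -0.44 for the members and -0.08, -0.06 and -0.06 for all genes. The replicate block called 0 members. Over the other lists the median was -0.41 for DNA replication genes, -0.36 for other mitosis genes and -0.15 for regulators, with FOXM1 at 72.6, 60.1 and 62.2 TPM (-0.13).

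The screen libraries allow the 7 compounds to be set beside each other, with 1 library each and no replicate check. P3FI-63 was the compound with the lowest member median, at a log2 ratio to DMSO of -0.53 against -0.04 for all 12304 genes. In that library 38 of 39 members were below DMSO, 17 were at least 1.5-fold lower (background 4.67%) and 0 at least 1.5-fold higher (6.51%). The lowest were BUB1B, a checkpoint kinase, at 23.7 against 46.8 TPM (-0.95), CENPE at 6.31 against 12.6 TPM (-0.90) and TOP2A at 198 against 362 TPM (-0.87), and the highest was CENPF at 0.17. CCNB1 was at 183 against 246 TPM, CDK1 at 184 against 242 TPM, AURKA at 108 against 165 TPM and PLK1 at 68.3 against 92.5 TPM. MKI67 was at 28.7 against 29.1 TPM. The DNA replication genes in this library had a median of 0.10 and 0 of 40 at least 1.5-fold lower, and the other mitosis genes had a median of -0.38 with 7 of 56 lower. FOXM1 was at 47.4 against 66.2 TPM and MYBL2 at 261 against 217 TPM.

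NP005584 was uneven across the members. Its member median was -0.14, with 9 at least 1.5-fold lower (background 15.5%) and 1 higher (14.1%). PLK1 was at 34.9 against 92.5 TPM in DMSO, AURKA at 87.2 against 165 TPM and CCNB1 at 163 against 246 TPM, while TOP2A was at 371 against 362 TPM and CDK1 at 268 against 242 TPM. CENPE, at 19.7 against 12.6 TPM, was the 1 member at least 1.5-fold higher. The DNA replication genes had a median of -0.21 in this library. For the other 5 compounds the member median lay close to that of all genes: 0.15 for 78800610218, -0.04 for 78902794023, 0.14 for IMMLG5770, -0.09 for KUC100517N and -0.07 for KUC102648N. None of their libraries had a member at least 1.5-fold lower (backgrounds 0.439, 1.12, 0.488, 2.62 and 1.43%). MKI67, CENPE and CENPF were at least 1.5-fold higher after 78800610218 (background 1.92%) and after IMMLG5770 (0.967%), and 0 members were after 78902794023 (1.18%), KUC100517N (1.89%) and KUC102648N (2.15%).

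**Figure D3:**
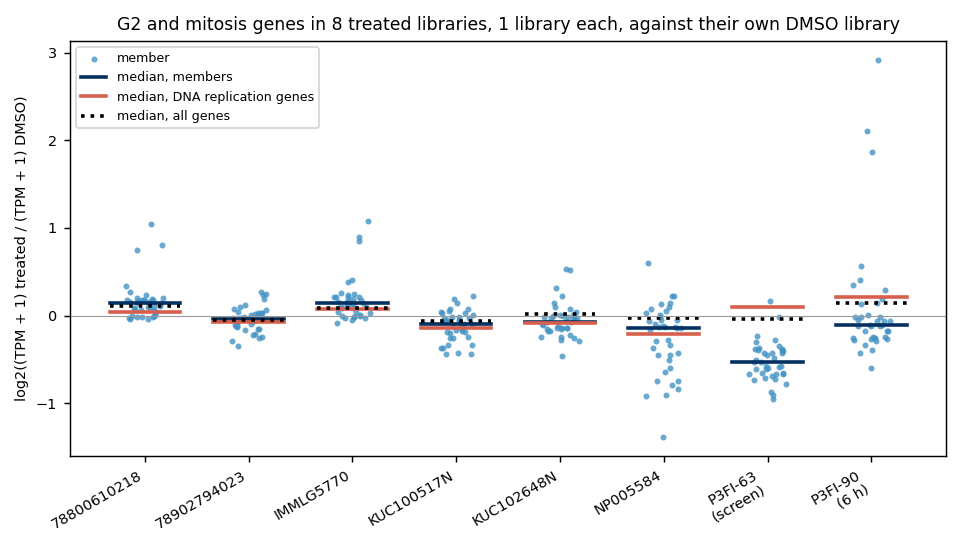
Log2 ratio of TPM + 1 to the DMSO library of the same experiment (y axis) for 39 members in each of 8 treated libraries (x axis). Points are members, and lines are medians of the members (blue), of the DNA replication genes (red) and of all genes (dotted). The members of the P3FI-63 screen library lie around -0.53 with the DNA replication genes at 0.10, and the P3FI-90 library at 6 h has 3 members above 1.5.

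In the plot of ratios by treated library, P3FI-63 is the column whose member median is farthest below that of all genes, and the 6 h P3FI-90 column carries 3 high points. Those were MKI67 at 84.2 against 10.2 TPM in DMSO, CENPE at 36.6 against 7.71 TPM and CENPF at 78.1 against 20.6 TPM. They are the longest transcripts among the members, and 3 were at least 1.5-fold higher in all (background 14.2%). In the same library transcripts of all genes were at 0.03 when under 2 kb, 0.14 at 2 to 5 kb and 0.30 at 5 kb or more. The member median after 6 h of P3FI-90 was -0.11 against 0.15 for all genes, with 28 of 39 below 0. CCNA2, cyclin A2, was the 1 member at least 1.5-fold lower (background 1.44%), at 112 against 171 TPM. CCNB1 was at 235 against 282 TPM and CDK1 at 196 against 262 TPM, whereas the DNA replication genes had a median of 0.21.

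In tumors the median change of the members was close to that of all genes. After 5 days of P3FI-90 38 of 39 members had a log2 fold change below 0 (background 83.2%), with a median of -0.28 against -0.30 for all 12357 genes. Limma called 0 members lower (0.0162%) and 0 higher (0 of all genes), and 2 were lower at an unadjusted p under 0.05 (6.29%), MKI67 and TACC3. In 9 members both treated tumors lay below both controls (40%). MKI67 was at 125 and 73.8 TPM in the control tumors and at 69.3 and 9.27 TPM after P3FI-90 (-1.85, SE 0.694, adjusted p = 0.573). CENPE was at 56.0 and 35.5 TPM against 51.1 and 7.12 TPM (-1.15, SE 0.679), and CENPF, a kinetochore protein, at 108 and 67.3 TPM against 79.6 and 19.5 TPM (-1.08, SE 0.524). For all 3 of these the second P3FI-90 tumor was far below the other libraries, and without it MKI67 was at -0.46, CENPE at 0.19 and CENPF at -0.10.

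CCNB1 was at 322 and 255 TPM in control tumors and at 227 and 216 TPM after P3FI-90 (-0.37, SE 0.198), and PLK1 at 119 and 92.6 TPM against 90.7 and 89.5 TPM (-0.22, SE 0.22), both without overlap. AURKA was at 213 and 186 TPM against 190.4 and 154 TPM (-0.21, SE 0.204), TOP2A at 366 and 277 TPM against 299 and 189 TPM (-0.42, SE 0.251), and CDK1 at 169 and 156 TPM against 181 and 126 TPM (-0.10, SE 0.227). These 3 overlapped. UBE2C (-0.05), CCNB2, cyclin B2 (-0.06), and CKS2 (0.10) had the smallest changes, with CCNB2 at 191 and 178 TPM against 175 and 179 TPM, UBE2C at 718 and 691 TPM against 652 and 715 TPM, and CKS2 at 542 and 504 TPM against 634 and 492 TPM. All of these overlapped. Without the second P3FI-90 tumor, limma called 0 members, 28 of 39 were below 0 and the member median was -0.07 against -0.12 for all genes. TOP2A was then at -0.09, AURKA at -0.06 and CDK1 at 0.16. Without the first P3FI-90 tumor limma called 7 members lower (14.6% of all genes), and with median-ratio scaling the member median was 0.06 against 0.01, with 17 of 39 below 0. In the second P3FI-90 tumor transcripts of 5 kb or more had a median of -0.75 over all genes and -1.33 over the members. Fibroblast markers summed to 462 and 919.6 TPM in control tumors and 813 and 806 TPM after P3FI-90. In the cultured libraries their sum ran from 101 to 1270.0 TPM, and their part in the result was not tested. Reads were aligned to the human genome only, so that mouse stroma was not measured apart.

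Single cells at 16 h gave the members at the level of the cell, with 1 library per condition and therefore no test. After filters on genes and mitochondrial share, 12542 of 13516 barcodes were kept in DMSO (median 8827 UMIs) and 10456 of 11415 after P3FI-90 (median 13255.5 UMIs), and the 2 libraries shared 34 barcodes. Summed over the members, DMSO held 5437 CPM (UMIs of a gene per 1000000 UMIs of the library, exact Poisson interval 5425 to 5449) and P3FI-90 4537 (4526 to 4547), intervals that cover counting error only. The DNA replication genes were at 2831 and 2747 CPM, the other mitosis genes at 4613 and 3852, and the regulators at 3133 and 2866. Of 39 members with enough UMIs, 37 were below DMSO (66.5% of 7905 genes), with a median log2 ratio of -0.24 against -0.07. At least 1.25-fold lower were 13 members (background 7.70%) and higher were 0 (2.30%).

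MKI67 had the lowest ratio, going from 307 to 195 CPM (log2 ratio -0.65). HMMR went from 94.1 to 60.3, TACC3, a spindle protein, from 99.5 to 64.6, CENPE from 189.5 to 127, CDC20 from 224 to 157 and DLGAP5, a spindle assembly factor, from 85.2 to 60.6 CPM. CCNB1 went from 215 to 159, PLK1 from 79.1 to 58.8 and AURKA from 153 to 114. The remaining 4 of the 13 were LBR, BUB1, BUB1B and CDCA8. CDK1 was higher after P3FI-90, at 108 against 93.8 CPM (log2 ratio 0.21, counting interval 0.17 to 0.24), and UBE2C was level at 666 against 664. TOP2A went from 379 to 321 and CKS2 from 191 to 183. Of the regulators FOXM1 was at 50.9 and 48.6, MYBL2 at 201 and 209 and CDKN1A at 29.0 and 32.7 CPM.

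Because the libraries differ in depth, each cell was thinned to 4000 UMIs, which left 9313 DMSO cells (3229 left out) and 8346 P3FI-90 cells (2110 left out). At that depth 10 or more of the 40 members were detected in 6581 DMSO cells, 70.7% (exact binomial interval 69.7 to 71.6), and in 4667 P3FI-90 cells, 55.9% (54.8 to 57.0). These intervals cover the sampling of cells within 1 library, not the spread between libraries, so the difference between conditions has no test. Without thinning the shares were 83.4 and 78.6%. A DMSO cell held a median of 13 members and a P3FI-90 cell 10. The cut divides a continuous range, with 458 and 637 cells at 9 members and 468 and 629 at 10. Cells with 0 to 2 members made up 2.60 and 4.42%. The plot of members detected per cell shows most of the P3FI-90 distribution lying toward fewer members, with quartiles of 7 and 14 against 9 and 17 in DMSO. The highest number detected in a cell was 35 after P3FI-90 and 32 in DMSO, but single cells set these values. Cells with exactly 20 members made up 1.51% after P3FI-90 and 3.32% in DMSO, and those with 25 members 0.587 and 0.805%. From 28 members on, where cells were few, the order varied.

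**Figure D4:**
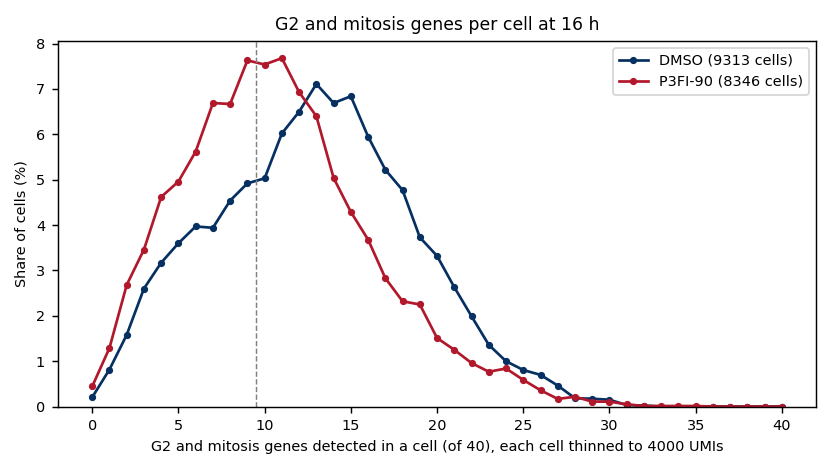
Share of cells in percent (y axis) by the number of the 40 members detected (x axis), each cell thinned to 4000 UMIs, for 9313 DMSO cells (blue) and 8346 P3FI-90 cells (red) at 16 h. The dashed line marks the cut at 10 members, to the right of which lie 70.7% of DMSO and 55.9% of P3FI-90 cells, and each curve has a single broad peak.

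Among cells that had 10 or more of the other members, MKI67 was detected in 72.8% of DMSO and 58.4% of P3FI-90 cells. Among cells with 0 to 2 of the others it was detected in 8.11 and 5.15%, which serves as the level in cells with few of these transcripts. In the cells with 10 or more others the mean of CCNB1 was 1.06 and 0.859 UMIs, of PLK1 0.389 and 0.324, of AURKA 0.758 and 0.649 and of TOP2A 1.97 and 1.88. CDK1 was at 0.446 and 0.565 UMIs and UBE2C at 3.18 and 3.61 in the same cells, both higher after P3FI-90. The DNA replication genes summed to 11.6 UMIs per cell in both conditions among cells with 10 or more members. Cells with 10 or more members held 89.5% of the member UMIs in DMSO and 80.2% after P3FI-90.

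RNA polymerase II with phosphorylated serine 5 (Pol2 Ser5) marks polymerase that has begun transcription near the start site. In DMSO, 39 of 40 members, all but G2E3, had a Ser5 peak within 2 kb of the start site (97.5%), against 40.2% of 20147 protein-coding genes and 66.3% of those at 1 TPM or more. After P3FI-90, 31 members did (77.5%), against 25.5% of all genes, in lists of 13691 and 7484 peaks. Of the 39 members with a peak in DMSO, 31 still had any peak in this window (79.5%), against 62.6% for all genes. The peak need not be the same: CDCA8 had peaks centered at -1920 and 43 bases from the start site in DMSO. After P3FI-90 it had only the distant one, at -1866. Counted over the gene body, 39 members had a peak in DMSO and 28 after P3FI-90, against 41.3 and 25.5% of all genes. The 8 members with no Ser5 peak after P3FI-90 were PLK1, BIRC5, which encodes the passenger protein survivin, BUB1B, NUF2, a kinetochore protein, GTSE1, TACC3, MKI67 and LBR, the lamin B receptor. Genes kept in the same way in the other lists were 39 of 51 for other mitosis genes, 18 of 31 for DNA replication genes and 14 of 29 for regulators.

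Fold enrichment over the MACS2 background, which is not scaled to spike-in chromatin, was lower after P3FI-90 in 23 of the 31 kept members (74.2%) and in 82.0% of all kept genes. The median log2 ratio was -0.33 for the members and -0.41 for all kept genes. The strongest member peaks in DMSO were those of CKS2 (38.9-fold, then 32.7 after P3FI-90), SMC4, a condensin subunit (34.1, then 25.5), CDK1 (28.8, then 13.7) and TOP2A (24.6, then 12.8). CCNA2 went from 10.6 to 16.0 and NUSAP1 from 22.5 to 28.7, against the direction of most. CCNB1 went from 7.12 to 9.83, with 1 peak of 669 bases in DMSO and 2 peaks after P3FI-90, of which the strongest spanned 223 bases. PLK1 had the weakest peak in DMSO, at 4.24-fold, and 6 of the 8 lost peaks were among those under 9-fold in DMSO. The CCNB1 sequence printed above lay wholly within the DMSO Ser5 peak and had 4 of its 200 bases in the strongest P3FI-90 peak. A weaker P3FI-90 peak (4.16-fold, 220 bases long) was centered 24 bases after the start site. It reached into the sequence too, but bases were counted for the strongest peak only. The CCNB2 sequence had 200 and 148 bases in the peaks. The TOP2A sequence had 200 and 97 bases in the peaks, and that of CDK1, whose RefSeq start lies upstream of the peak's center, had 77 and 20. The PLK1 and MKI67 sequences had 183 and 71 bases in the DMSO peak and none after P3FI-90.

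**Figure D5:**
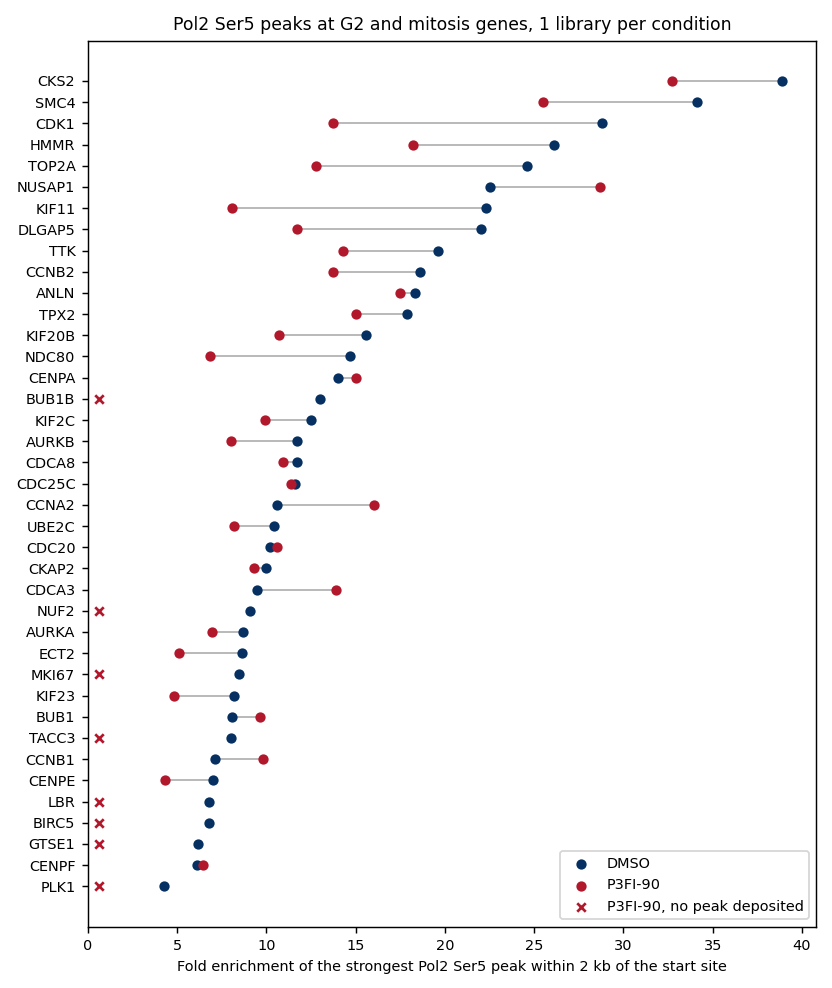
Fold enrichment of the strongest Pol2 Ser5 peak within 2 kb of the start site (x axis, starting at 0) for the 39 members with a peak in DMSO (y axis, ordered by the DMSO value), in 1 DMSO library (blue) and 1 P3FI-90 library (red) at 24 h. Crosses at the left edge mark the 8 members with no P3FI-90 peak, and for 23 of the other 31 the red point lies left of the blue one.

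As the plot of Ser5 enrichment shows, the members without a P3FI-90 peak were mostly in its lower part. These 8 had a median single-cell log2 ratio of -0.39 at 16 h and the 31 with a kept peak -0.24. At 24 h of P3FI-90 the medians were -0.50 and -0.41 and in tumors -0.31 and -0.28, whereas at 6 h they were -0.02 and -0.12. In the P3FI-63 libraries they were -1.10 and -0.91 at 24 h and, in the opposite order, -0.40 and -0.57 in the screen. Total Pol2 peaks covered 13 members in DMSO (background 6.46%) and 0 after P3FI-90 (0.516%), and Ser2 peaks, which mark elongating polymerase, 11 (7.30%) and 5 (2.82%). An H3K4me3 peak lay at 39 of 40 members in each of 3 DMSO and 3 P3FI-90 lists (97.5%), against 52.7 to 63.3% of all protein-coding genes and 85.5 to 93.9% of those at 1 TPM or more. Open chromatin peaks lay at 32 members in DMSO and 38 after 4 h of P3FI-63, against 38.7 and 55.1% of all genes. HP1 peaks at 24 h lay at 2 members in 1 DMSO library and at 10 in 1 P3FI-90 library, against 3.44 and 8.10% of all genes. H3K9me2, the mark that KDM3B removes, had peaks at 15, 5 and 0 members in the 3 DMSO lists and at 9, 1 and 0 after P3FI-90. Over all genes the shares were 22.7, 6.25 and 0.506% in DMSO and 23.7, 1.79 and 0.566% after P3FI-90, in lists whose lengths ran from 9294 to 258066 peaks. With peaks called separately in each list, these counts move with the number of peaks, and no test was made.

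The members were also split by TTTGAA alone, so that CCNA2, with the variant CTTGAA at 2 places, counts among those without it. The 24 members tested with TTTGAA in the promoter had a median log2 ratio of -0.24 in single cells and the 10 without -0.32, and in the P3FI-63 screen library the medians were -0.60 and -0.42. At 24 h they were -0.95 and -1.18 after P3FI-63 and -0.44 and -0.54 after P3FI-90. Both groups therefore had medians below 0 in each of these comparisons, and their ranges overlapped.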

How the data were processed

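RH4 libraries were grouped by the submitters' labels. The members and lists were chosen with earlier results of these data known. Expression values were deposited by the authors as TPM, made per the study's methods with STAR alignment to hg19 and RSEM. Deposited single-cell values were UMI counts from Cell Ranger 6.1.2. Peak lists deposited by the authors (BWA, MACS2) give fold enrichment, used as a ratio, and -log10 p, and spike-in scaling does not enter them. Only peaks with -log10 p of at least 3 were used. Control tables that list 18710 genes entered no comparison.

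Genes whose mean TPM reached 1 were tested on log2(TPM + 1) with limma 3.58.1 in R 4.3.3, with Benjamini-Hochberg adjustment over all genes tested. One fit held the 24 h libraries and another the tumors, and fold changes are on that scale, which understates changes of low genes. Alternatives were median-ratio scaling, other pseudocounts and filters, each library left out, a replicate block and, chosen after the data were seen, a correction for transcript length and combinations with the block. At 24 h the deviations of same-numbered libraries from their group means correlated at 0.571, 0.575 and 0.643 between DMSO and P3FI-90, at 0.312 and 0.388 between DMSO and P3FI-63 and at 0.314 and 0.402 between the compounds. With 2 P3FI-63 libraries their deviations mirror each other (DMSO replicate 3 gave 0.312 with replicate 3 and -0.312 with replicate 4). The values for P3FI-63 are therefore not separate checks of each pair. Numbers 3 and 4 come from the labels, and the remaining pair carries none and was called 1. Comparisons with 1 library per condition have no test. Cells with at least 200 genes and at most 15% mitochondrial UMIs were kept, doublets were not removed, and intervals are exact at 95%. Start sites came from GENCODE 44 on GRCh37. Scripts were tested on simulated data. Every member may be named, with values in all libraries for the 3 largest and 3 smallest changes in each comparison, the 3 highest levels, and TOP2A, MKI67, CCNB1, CDK1, PLK1 and AURKA. Of other lists FOXM1, MYBL2, CDKN1A, E2F1 and up to 3 genes per list and direction that passed the test are named. Python 3.11.15 with numpy 2.4.6, pandas 2.3.3, scipy 1.17.1 and matplotlib 3.10.9 was used.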

Additional observations from a re-analysis of the deposited data

How the results depend on the processing

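With the replicate number as a block, the members called lower after 24 h of P3FI-63 went from 0 to 20 (1.21% and 8.31% of all genes). They were 12 with the block and median-ratio scaling (589 of 12333 genes) and 6 with the transcript-length correction (311 of 10918 genes). With the block and that correction they were 20 (775 of 10918 genes). The last 3 settings were chosen after the data were seen. The block called 0 members after P3FI-90. No paired analysis was possible in tumors because the labels give them no shared replicate number.

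Leaving out 1 library at a time, members called after P3FI-63 ranged from 0 to 33 lower and from 0 to 2 higher, after P3FI-90 they were 0 throughout, and in tumors they ranged from 0 to 7 lower and were 0 higher. The 33 arose without P3FI-63 replicate 3 and the 7 without P3FI-90 tumor replicate 1, where the lone treated library is assumed to vary like the other groups. Median-ratio scaling put the member median at 0.01 for 78800610218, 0.01 for 78902794023, 0.04 for IMMLG5770 and -0.29 for P3FI-90 at 6 h. Cells with 10 or more members were 35.7% in DMSO and 20.4% after P3FI-90 at 2000 UMIs, 83.4 and 78.6% without thinning, and with 5 or more members 91.6 and 87.5%, and the P3FI-90 level without the 3% of cells with the most UMIs was 4490.4 CPM.

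Signs of single members turned 25 times, and the cause was not tested. For P3FI-63 at 24 h, leaving out 1 library gave ranges of -3.98 to 0.44 for MKI67, -0.07 to 0.66 for UBE2C, -0.89 to 0.09 for ANLN, -0.15 to 1.06 for CKS2 and -0.51 to 0.09 for AURKB, each with its ends set by the 2 P3FI-63 libraries. AURKB was 0.19 with median-ratio scaling and 0.10 with the block and scaling, and ANLN was 0.03 with the block and scaling, 0.07 with the length correction and 0.09 with both block and length. For P3FI-90 at 24 h, CENPE ranged from -1.57 (without P3FI-90 replicate 3) to 0.03 (without DMSO replicate 3) and TTK from -0.34 (without DMSO replicate 4) to 0.13 (without P3FI-90 replicate 4). In tumors median-ratio scaling gave UBE2C 0.30, CCNB2 0.28, CDK1 0.24, PLK1 0.12 and AURKA 0.13. The length correction gave CCNB2 0.07, CKS2 -0.01, TOP2A 0.01 and CDK1 0.08. Leaving out 1 of the P3FI-90 tumors, UBE2C ranged from -0.11 to 0.02, CKS2 from -0.09 to 0.28, CENPE from -2.49 to 0.19 and CDK1 from -0.37 to 0.16.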

Other observations

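In controls of knockdown experiments with no partner in these comparisons, the members summed to 3581 TPM in the scrambled library at 48 h and to 5730.0 TPM in the negative control of CRISPRi, with medians of 56.2 and 98.7 TPM. In the scrambled library UBE2C was at 474 TPM, CKS2 at 281 TPM, TOP2A at 253 TPM, CCNB1 at 249 TPM, CDK1 at 127 TPM, AURKA at 79.4 TPM, PLK1 at 51.1 TPM and MKI67 at 30.9 TPM. H3K27me3 peaks lay at 8 members in DMSO and 12 after P3FI-90, against 35.4 and 40.1% of all genes, and G2E3 had such a peak in both.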
